A study of Mus musculus with 7 samples.

Results

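The genes described here encode proteins of the mitochondrial ribosome, measured in the soleus of mice with and without the transcription factor gene Yy1. They were chosen by name: probe sets with exactly 1 gene symbol in the platform annotation, where the symbol starts with Mrpl (large subunit) or Mrps (small subunit) followed by a digit, with 1 probe set per gene, the one with the highest mean over all arrays. This gave 74 of the 12393 genes measured, 47 of the large and 27 of the small subunit. Total RNA was hybridised to 7 one-colour Affymetrix arrays, 4 for Yin Yang 1 (YY1) knockout and 3 for wild type. All mice were 6 months old and of mixed background (C57Bl/6 and 129), and the soleus is a slow, postural muscle of the hindlimb. The sources used here do not give the cells in which the knockout was made, the part of the gene removed or the way it was removed. They also do not state whether each array came from a separate mouse, so a p-value here reflects only how these 7 arrays scatter.

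The mitochondrial ribosome, or mitoribosome, sits in the mitochondrial matrix and translates the few messenger RNAs of mitochondrial DNA, all of which encode subunits of the respiratory chain and the ATP synthase. Its ribosomal RNAs come from mitochondrial DNA, but every one of its proteins is encoded in the nucleus, made in the cytosol and imported. The large subunit joins amino acids and holds the exit tunnel, and the small subunit binds and decodes the messenger RNA. Many of the proteins have a bacterial counterpart, and the others are known only from mitochondria. YY1 is a zinc finger protein that can activate or repress genes and whose known binding sequence has the core ATGGC.

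Yy1 was lower in every knockout array. It measured 8.39, 8.24, 8.48 and 8.29 log2 units in the knockout arrays, against 9.32, 9.20 and 9.62 in the wild type arrays, a log2 fold change of -1.02 (SE 0.10, limma adjusted p = 0.000213; two-sided exact permutation p = 0.0286, the smallest that 35 divisions of 4 and 3 arrays allow). Whether its probe set lies in the removed part is not known. Correlations between arrays lay between 0.995 and 0.997 within knockout, at 0.997 within wild type and between 0.977 and 0.987 across genotypes. Values are log2(intensity + 1) throughout, and a log2 fold change is knockout minus wild type. Probe sets bind with different strength, so levels are compared between arrays for 1 gene and not between genes.

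The YY1 sequence was searched for in the RefSeq promoters of these genes (build GRCm38.p6, 250 bases before to 50 after the annotated start, both strands), because YY1 is the factor removed. The letters searched were AANATGGC, the short form, and a long form of it with G in place of N and GGC added at its end. The long form was found in 4 of the 65 members that the promoter table held, or 6.15%, against 133 of 9882 genes of the array (1.35%) and 0.633% of all 32851 windows of the table. These 4 windows are shown first, from 40 bases before the motif to its end, with the motif in capitals. In Mrps11 the motif lies on the opposite strand.
Mrpl35, chr6:71823751-71823801, minus strand: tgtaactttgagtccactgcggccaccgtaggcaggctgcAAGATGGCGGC
Mrpl37, chr4:107066830-107066880, minus strand: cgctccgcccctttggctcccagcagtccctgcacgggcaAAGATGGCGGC
Mrps11, chr7:78782981-78783031, plus strand: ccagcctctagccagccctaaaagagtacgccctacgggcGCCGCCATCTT
Mrps18a, chr17:46110975-46111025, plus strand: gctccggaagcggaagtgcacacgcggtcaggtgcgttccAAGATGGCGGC

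The short form, which the long form contains, was found in 20 of the 65 members (30.8%). It was in 845 of 9882 genes of the array (8.55%) and in 6.05% of all windows. All members lie above the median level of the array, and the share among such genes alone was not taken for any motif searched. The next windows, with the short match in capitals, are those where it begins after the start and the long form is absent. Only genes among the 12 largest falls of the large or the 10 of the small subunit were taken, so all of them fell. Such matches in Mrpl11, Mrpl47 and Mrps7, which did not pass, and in genes with smaller falls are not printed.
Mrpl18, chr17:12916078-12916125, minus strand: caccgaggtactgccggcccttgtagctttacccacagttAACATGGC
Mrpl27, chr11:94653759-94653806, plus strand: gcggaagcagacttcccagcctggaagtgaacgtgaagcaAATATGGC
Mrpl42, chr10:95501915-95501962, minus strand: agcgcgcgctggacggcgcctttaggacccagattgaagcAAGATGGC
Mrpl49, chr19:6057732-6057779, minus strand: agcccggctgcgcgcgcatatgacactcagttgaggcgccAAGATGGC
Mrps24, chr11:5707658-5707705, minus strand: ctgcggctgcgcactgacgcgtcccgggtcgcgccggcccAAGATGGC
Mrps30, chr13:118387230-118387277, minus strand: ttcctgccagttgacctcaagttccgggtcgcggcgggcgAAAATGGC

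Of the 22 short matches in members, 15 began after the annotated start, at position 7 in Mrpl18 and 9 in Mrpl27, counting the first transcribed base as 1. An ATG in this place can also be the start codon, and which matches are start codons was not tested. A match is a stretch of letters, and binding of YY1 was not measured here.

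In knockout soleus the mitoribosome genes were lower as a rule, mostly by less than 2-fold. By limma with Benjamini-Hochberg adjustment over all 12393 genes and a threshold of 0.05, 43 of the 74 fell, 2 rose and 29 did not pass. Of all genes, 16% fell and 17.0% rose, and among the 6196 genes above the median level, to which all 74 members belong, 25.9% fell and 26.2% rose. The median log2 fold change of the members was -0.27, or 82.8% of wild type, against 0.01 over all genes. Of the members that fell, 15 fell by at least 1.5-fold and 3 by at least 2-fold: Mrpl19, Mrps9 and Mrpl18. Knockout values lay wholly below wild type in 48 members and wholly above in 3, where 19.1% and 20.5% of all genes did so, and the groups overlapped in the other 23. In whole muscle, fewer cells of a type and less RNA per cell cannot be told apart.

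**Figure D1:**
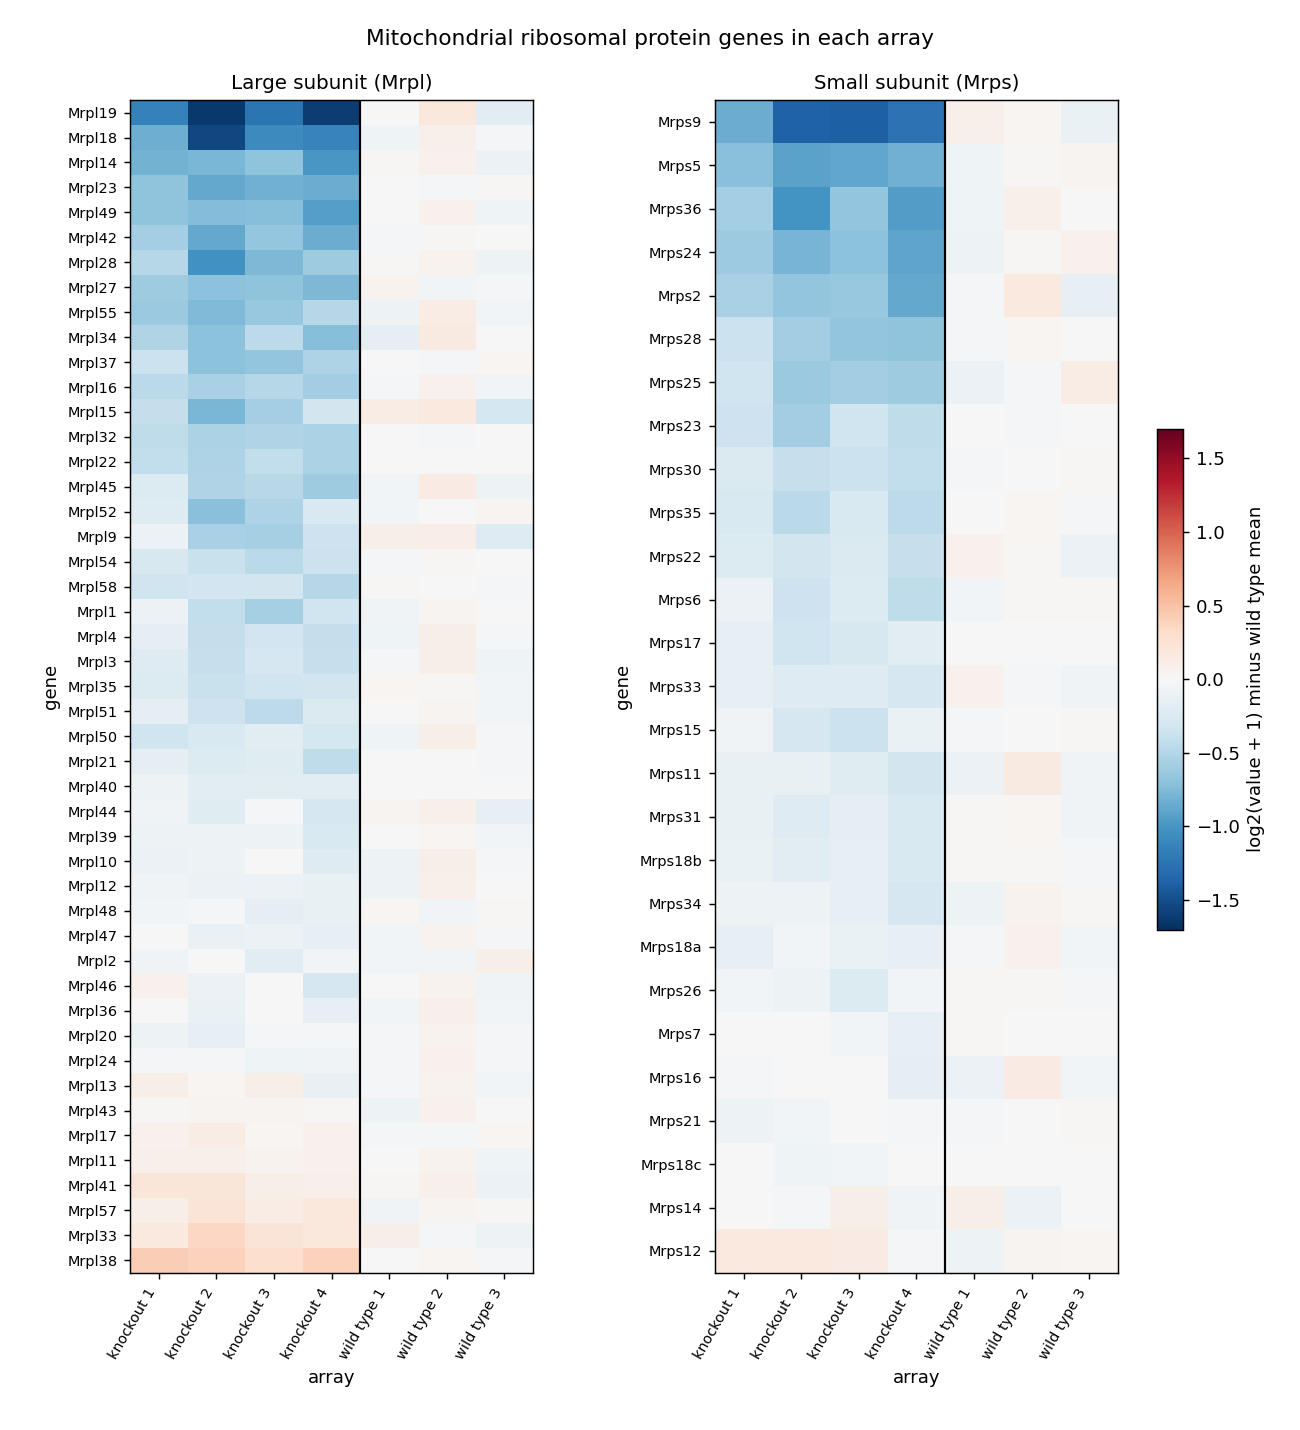
Each row is a gene and each column an array, with the knockout arrays left of the black line; colour is the log2 value minus the wild type mean of that gene. Rows run from the lowest to the highest log2 fold change, from Mrpl19 (-1.41) to Mrpl38 (0.37) in the large subunit and from Mrps9 (-1.21) to Mrps12 (0.11) in the small one.

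The shift was present in each knockout array and smallest in the first. The median difference of the 74 members from their wild type means was -0.14, -0.32, -0.25 and -0.30 in knockout arrays 1 to 4, against -0.02, 0.04 and -0.02 in the wild type arrays. Knockout array 1 had 62 of 74 members below the wild type mean, and the other knockout arrays had 64, 62 and 66. The same median over all genes lay between 0.00 and 0.02 in the knockout arrays.

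Both subunits were lower. In the large subunit 27 of 47 genes fell (57.4%) and 2 rose, with a median of -0.31 and a middle range (the 25th to the 75th percentile) of -0.52 to -0.07. In the small subunit 16 of 27 fell (59.3%) and none rose, with a median of -0.22 and a middle range of -0.49 to -0.11. All but 1 of the small subunit genes had a negative log2 fold change, and 39 of the 47 large subunit genes did. The medians differed by 0.09, less than the middle range of either subunit, and the subunits were not tested against each other. Without wild type array 2 they differed by 0.05. Structures place the proteins of Mrps18a and Mrps30 in the large subunit, and the protein of Mrps36 has been found in the oxoglutarate dehydrogenase complex. With those genes moved or left out, 28 of 49 large subunit genes and 14 of 24 small subunit genes fell, with medians of -0.31 and -0.21.

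**Figure D2:**
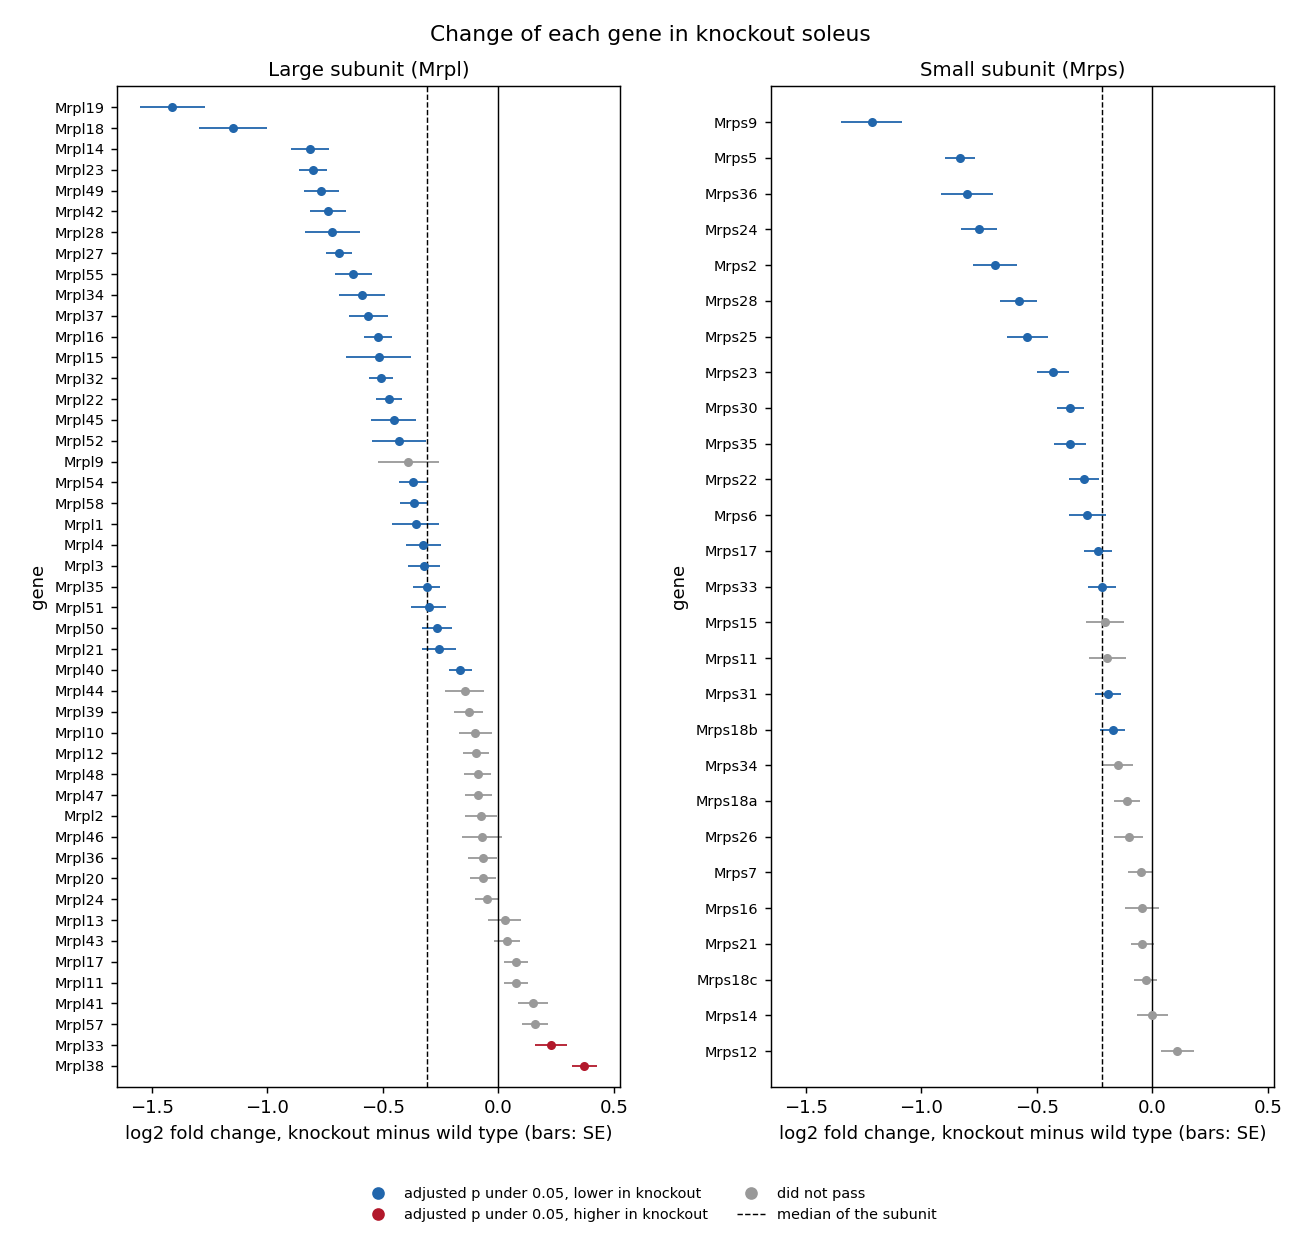
Points are log2 fold changes of each gene, knockout minus wild type, with SE bars; blue points fell, red points rose and grey points did not pass the adjusted p threshold. The dashed lines mark the medians, -0.31 in the large and -0.22 in the small subunit.

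Among large subunit genes Mrpl19 fell most. Mrpl19, a protein with a bacterial counterpart, measured 8.72, 8.24, 8.64 and 8.26 log2 units in knockout arrays, against 9.87, 10.06 and 9.70 in wild type arrays. All 4 knockout values lay more than a whole log2 unit below the mean of wild type, with no overlap, at 37.6% of wild type (log2 fold change -1.41, SE 0.14, adjusted p = 0.000198). A second probe set of Mrpl19 gave -1.56 (SE 0.18), and another, dim one at 4.22 in knockout and 4.30 in wild type gave -0.08 (SE 0.08).

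Mrpl18, a protein of the central protuberance at the top of the large subunit, measured 11.09, 10.37, 10.83 and 10.78 in knockout arrays, against 11.85, 12.001 and 11.90 in wild type arrays. The knockout values were spread over a wider range than wild type but did not reach it (-1.15, SE 0.15, adjusted p = 0.00059; 45.1% of wild type). In the central protuberance list as a whole, 4 of 7 genes fell and 1 rose, with a median of -0.16. Mrpl27, whose bacterial counterpart reaches the site of peptide bond formation, measured 10.96, 10.87, 10.88 and 10.80 in knockout, against 11.63, 11.52 and 11.55 in wild type. It fell by 0.69 (SE 0.06, adjusted p = 0.000101) and the groups lay far apart compared with their spread. Mrpl55 fell by 0.63 (SE 0.08), while Mrpl40 fell by 0.16 (SE 0.05, adjusted p = 0.0389), the smallest fall of the 43. The Mrpl40 call was lost under 8 of 17 alternative settings.

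Of genes for the exit tunnel, where the new protein leaves the ribosome, Mrpl23 changed by -0.80 (SE 0.06, adjusted p = 7.02e-05). It measured 11.23, 11.04, 11.10 and 11.07 in knockout arrays, against 11.93, 11.88 and 11.93 in wild type arrays, 57.3% of wild type with tight groups. Mrpl22, also of the tunnel, changed by -0.47 (SE 0.06) and Mrpl45, known to hold the ribosome to the inner membrane, by -0.45 (SE 0.10). The other 5 tunnel genes did not pass: Mrpl44 at -0.15, Mrpl39 at -0.13, Mrpl47 at -0.09, Mrpl24 at -0.05 and Mrpl17 at 0.07. So 3 of 8 fell in this list (37.5%), with a median of -0.14, where 25.9% of genes above the median level fell. For Mrpl44 and Mrpl39 other probe sets passed, at -0.46 and -0.42 in Mrpl44 and -0.33 in Mrpl39.

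Genes of the stalk, which recruits translation factors to the large subunit, did not pass. Mrpl10 measured 9.98 ± 0.09 log2 units in knockout and 10.08 ± 0.09 in wild type (SD, n = 4 and 3). Mrpl12 measured 11.91 ± 0.03 in knockout and 12.01 ± 0.08 in wild type, and Mrpl11 11.48 ± 0.01 in knockout and 11.40 ± 0.07 in wild type (SD, n = 4 and 3 each). In these 3 genes the groups overlapped, and the log2 fold changes lay between -0.10 and 0.08.

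Mrpl14, a protein at the face where the subunits meet, measured 10.91, 10.94, 11.04 and 10.73 in knockout, against 11.74, 11.80 and 11.63 in wild type. Every knockout array was lower, at 56.8% of wild type (-0.82, SE 0.08, adjusted p = 0.000194). Mrpl16, another protein of the core, changed by -0.52 (SE 0.06), Mrpl28 by -0.72 (SE 0.12) and Mrpl34 by -0.59 (SE 0.10). Mrpl32, which in yeast and mouse has to be cut by a mitochondrial protease before it is assembled, changed by -0.51 (SE 0.05) with wild type values of 11.33, 11.31 and 11.33. Of the mitochondria-specific proteins of the large subunit, Mrpl49 changed by -0.77 (SE 0.07), Mrpl42 by -0.74 (SE 0.08) and Mrpl37 by -0.56 (SE 0.08). Mrpl58, a peptidyl-tRNA hydrolase built into the large subunit, changed by -0.36 (SE 0.06). A dim second probe set of Mrpl42, at 4.28 in knockout and 4.21 in wild type, gave 0.07 (SE 0.06), where the reported one lay at 12.61 in knockout and 13.35 in wild type.

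Mrpl38 and Mrpl33 were the only members that rose. Mrpl38, a mitochondria-specific protein of the central protuberance, measured 10.42, 10.41, 10.30 and 10.40 log2 units in knockout arrays, against 10.01, 10.04 and 9.97 in wild type arrays. Its groups did not overlap (0.37, SE 0.06, adjusted p = 0.00115; 129% of wild type). Its probe set is marked as one that can bind other sequences, and the only other probe set, at 6.20 in knockout and 6.06 in wild type, gave 0.14 (SE 0.10, adjusted p = 0.349 over all probe sets). Mrpl33, a small protein with a bacterial counterpart, measured 11.41, 11.59, 11.46 and 11.41 in knockout, against 11.34, 11.21 and 11.16 in wild type. It rose by 0.23 (SE 0.07, adjusted p = 0.0365), a call that was lost when knockout array 2, 3 or 4 or wild type array 2 or 3 was left out (adjusted p = 0.0526 to 0.124).

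Among the large subunit genes with almost no difference, Mrpl13 measured 11.73 ± 0.11 in knockout and 11.70 ± 0.05 in wild type (SD, n = 4 and 3). Mrpl43 measured 11.02 ± 0.02 in knockout and 10.99 ± 0.08 in wild type, and Mrpl24 11.16 ± 0.02 in knockout and 11.21 ± 0.06 in wild type (SD, n = 4 and 3 each). Their log2 fold changes lay between -0.05 and 0.04, and a p that misses the threshold does not show that the levels were equal.

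In the small subunit Mrps9 fell most. Mrps9, of a family whose bacterial protein touches the transfer RNA in the peptidyl site, measured 10.06, 9.53, 9.52 and 9.65 in knockout arrays, against 10.99, 10.94 and 10.79 in wild type arrays. Knockout array 1 was the highest of its group and still below every wild type array (-1.21, SE 0.13, adjusted p = 0.000267; 43.1% of wild type). Other Mrps9 probe sets gave -1.25 and -0.98, and the dimmest, at 6.65 in knockout and 6.73 in wild type, gave -0.09.

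Mrps5, whose bacterial counterpart lines the entry of the messenger RNA channel and bears on the accuracy of decoding, measured 8.78, 8.59, 8.61 and 8.68 in knockout, against 9.43, 9.51 and 9.55 in wild type. The gap between the groups was several times their spread (-0.83, SE 0.06, adjusted p = 7.81e-05; 56.2% of wild type), and a second probe set gave -0.998 (SE 0.12). Mrps24, the counterpart of bacterial S3 at the same entry, measured 11.19, 11.01, 11.11 and 10.92 in knockout, against 11.73, 11.82 and 11.87 in wild type (-0.75, SE 0.08, adjusted p = 0.00021). Mrps2 changed by -0.68 (SE 0.10), Mrps28 by -0.58 (SE 0.08), Mrps25 by -0.54 (SE 0.09) and Mrps23 by -0.43 (SE 0.07). Mrps30 and Mrps35 both changed by -0.36 (SE 0.06 and 0.07). Mrps36 changed by -0.80 (SE 0.11).

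Among small subunit genes nearest to no difference were Mrps14, Mrps18c and Mrps21, and Mrps12 did not pass either. Mrps12, whose bacterial counterpart is part of the decoding centre, measured 11.05, 11.05, 11.02 and 10.85 in knockout, against 10.80, 10.93 and 10.92 in wild type. The groups overlapped, and the log2 fold change of 0.11 (SE 0.07, adjusted p = 0.277) was the only positive one in the small subunit. Mrps14 measured 12.56, 12.55, 12.67 and 12.52 in knockout, against 12.68, 12.48 and 12.56 in wild type, with means that agreed to the second decimal (12.58 in both). A second Mrps14 probe set, at 7.83 in knockout and 8.07 in wild type, gave -0.24 (SE 0.10, adjusted p = 0.0946). Mrps21 lay at -0.04 (SE 0.05).

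**Figure D3:**
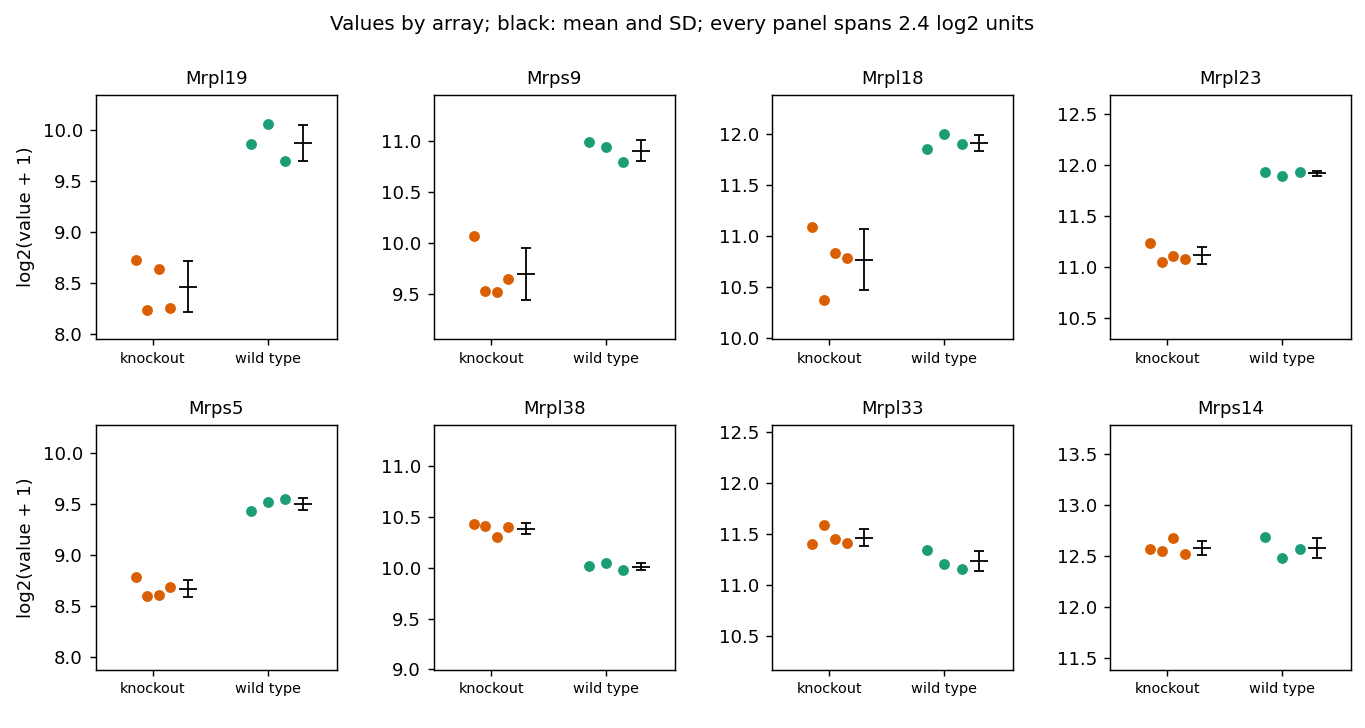
Log2 values of 8 genes by array, knockout left of wild type, with the mean and SD in black; every panel spans the same number of log2 units. The groups are far apart in Mrpl19, Mrps9, Mrpl18, Mrpl23 and Mrps5, reversed in Mrpl38 and Mrpl33, and overlap in Mrps14.

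Mammals have 3 related genes where bacteria have a single S18 protein. Mrps18b fell by 0.17 (SE 0.06, adjusted p = 0.0418), at 10.15 ± 0.06 in knockout and 10.32 ± 0.03 in wild type (SD, n = 4 and 3). Mrps18a measured 11.88 ± 0.05 in knockout and 11.99 ± 0.06 in wild type (-0.11, SE 0.06, adjusted p = 0.174), and Mrps18c 11.45 ± 0.04 in knockout and 11.48 ± 0.00 in wild type (-0.03, SE 0.05, adjusted p = 0.696; SD, n = 4 and 3 each). All 3 wild type arrays and knockout array 4 hold 1 and the same deposited value of Mrps18c. The differences between the 3 genes were not tested. The Mrps18b call was lost under 9 of 17 alternative settings: leaving out any array but knockout array 1, centring arrays on their median (adjusted p = 0.0516), quantile normalization (adjusted p = 0.0531) and the replicate block (adjusted p = 0.198).

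By origin, 25 of 46 proteins with a bacterial counterpart fell and 1 rose, with a median of -0.27, and 18 of 28 mitochondria-specific ones fell and 1 rose, with a median of -0.28. In the small subunit 8 of 17 genes of the first kind and 8 of 10 of the second fell, with medians of -0.19 and -0.33. In the large subunit the counts were 17 of 29 and 10 of 18, with medians of -0.33 and -0.21. These lists go by symbol, so Mrps18a, Mrps30 and Mrps36 count in the small subunit here. Mrps30 and Mrps36 are among its falls of the second kind. By symbol the order of the medians was opposite in the subunits, and neither order was tested.

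Several genes had more than 1 probe set. Of 33 such members, 16 had at least 1 further probe set with a difference of the other sign or one smaller by more than 2-fold. In all these were 19 probe sets of 53. Larger differences of the same sign were not counted, such as -0.65 (adjusted p = 0.011) against the reported -0.26 in Mrpl50. Apart from those described above, Mrpl15 changed by -0.52 (SE 0.14), and of its further probe sets 4 gave -0.54 to -0.65 and the other 2 gave -0.05 and 0.08. Mrpl1, a protein of the flexible stalk on the other side of the large subunit, changed by -0.36 (SE 0.10), with others at -0.12 and -0.11. Mrpl3 changed by -0.32, with others at -0.48 (adjusted p = 0.0084) and 0.10. Mrpl52 changed by -0.43, with others at -0.67 and -0.61, which both passed, and a dim one at -0.12. Mrpl28 had others at -0.61 and -0.33, which both passed, and Mrpl34 had another at -0.18. Of genes that did not pass, Mrpl9 lay at -0.39 and had another probe set that passed, at -0.51 (adjusted p = 0.00227). Mrpl57 lay at 0.16 and 0.08, Mrpl41 at 0.15, 0.10 and 0.02, Mrpl48 at -0.09 and 0.01, and Mrps11 at -0.19 and 0.01. Mrpl11 lay at 0.08, with others at 0.13 and 0.07 and a dim one at -0.17, and Mrpl13 at 0.03, -0.13 and -0.21. With the probe sets of each gene averaged, 46 members fell and 2 rose.

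The rest of the mitochondrial translation machinery was lower in part. Of mitoribosome proteins with other symbols, 2 of 4 fell: Gadd45gip1, of a protein near the exit tunnel, at -0.70 (SE 0.08) and Ptcd3, of the messenger RNA entry, at -0.30 (SE 0.08), while Chchd1 and Dap3 lay at 0.03 and 0.10 and did not pass. Of 9 translation factors and their partners 7 fell and none rose, with a median of -0.57. Gfm2, of a factor that releases the ribosome after translation, changed by -0.67 (SE 0.07), Oxa1l, of the insertase that takes new proteins into the inner membrane, by -0.58 (SE 0.07), and Lrpprc, whose product stabilises mitochondrial messenger RNA, by -1.05 (SE 0.11). Of 11 genes that charge mitochondrial transfer RNA 6 fell and 1 rose, with a median of -0.21: Gatb changed by -0.72 (SE 0.10), Fars2 by -0.56 (SE 0.06) and Ears2 by -0.45 (SE 0.07), and Tars2 rose by 0.18 (SE 0.05).

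Of 19 genes for assembly of the mitoribosome and modification of its RNA, 7 fell (36.8%) and 1 rose, with a median of -0.15. Whether that share differs from the 25.9% of genes above the median level that fell was not tested. The RNA-modifying enzyme genes Nsun4, Rpusd4 and Mrm3 changed by -0.87 (SE 0.09), -0.86 (SE 0.11) and -0.65 (SE 0.10), and C1qbp rose by 0.22 (SE 0.06). Of 11 genes for transcription, processing and replication of mitochondrial DNA 5 fell and none rose, with a median of -0.03. Hsd17b10, a subunit of mitochondrial ribonuclease P, changed by -1.40 (SE 0.09), Mterf2 by -0.88 (SE 0.13) and Tfb2m by -0.57 (SE 0.09), while Tfam, the packaging factor of mitochondrial DNA, measured 9.85 in both groups. Among regulators of nuclear genes for mitochondria, 5 of 8 fell, Yy1 included, and none rose, with a median of -0.35. Esrra changed by -0.49 (SE 0.11) and Ppargc1b by -0.44 (SE 0.12). The other members of that list that fell, Gabpa at -0.27 (SE 0.08) and Ppargc1a at -0.98 (SE 0.30), and Nrf1, which lay at 0.03 (SE 0.08), were named after their values were seen, as was Tfam.

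Genes often used to gauge mitochondrial content were lower by a like amount, with 10 of 15 fallen, none risen and a median of -0.30. Among them the citrate synthase gene Cs changed by -0.36 (SE 0.06), Tomm40 by -0.36 (SE 0.06) and Slc25a3 by -0.30 (SE 0.05). Protein genes of the cytosolic ribosome, a list added after the data had been seen, ran the other way: 19 of 45 rose and 1 fell, with a median of 0.18. The gene that fell was Rpl3l, a muscle form of a large subunit protein, at -0.93 (SE 0.13).

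**Figure D4:**
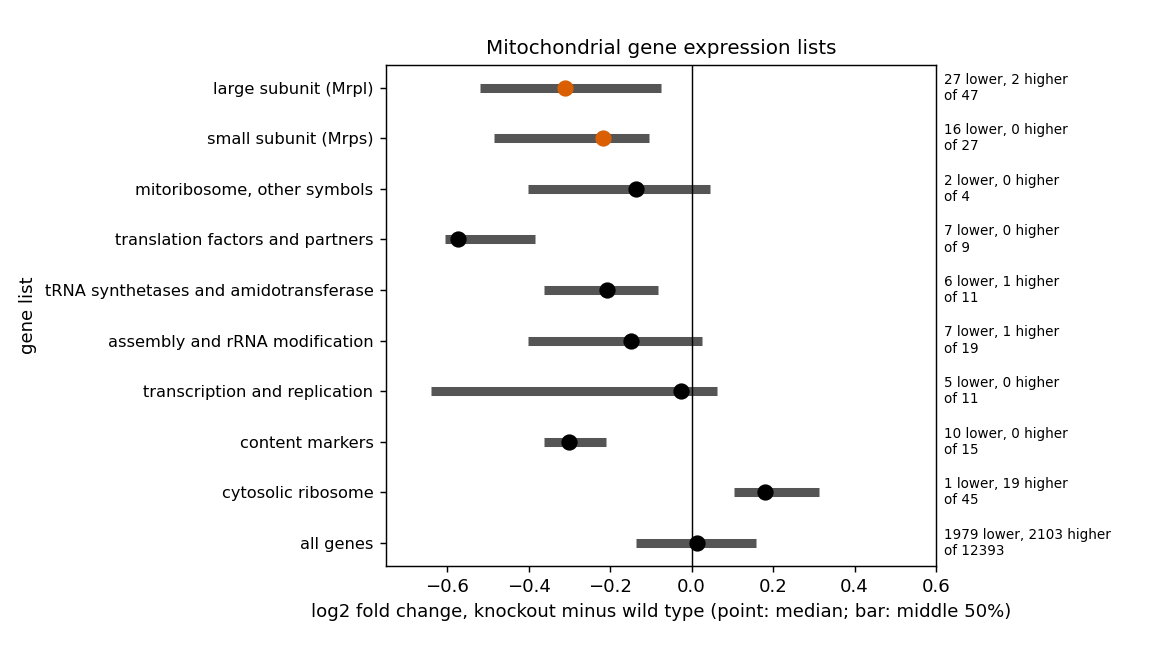
Points are the median log2 fold changes of gene lists, knockout minus wild type, and bars hold the middle 50% of the genes; counts of genes past the threshold stand at the right. Both mitoribosome subunits lie left of 0 (medians -0.31 and -0.22), and the cytosolic ribosome lies right of it (median 0.18).

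Markers of other cells moved in the same arrays. All 8 slow fibre markers were present, with no value under 14.5 log2 units; 4 rose and 1 fell, and their summed intensity was 304959 to 316022 in knockout and 273383 to 296205 in wild type. All 11 macrophage markers rose, with a median of 1.19 and sums of 8407 to 13971 in knockout, against 3864 to 4687 in wild type. All 9 endothelial markers fell, with a median of -1.003 and sums of 2388 to 2705 in knockout, against 4882 to 5221 in wild type. Of 7 fibroblast markers 5 rose, with sums of 25391 to 39165 in knockout, against 18942 to 22240 in wild type. The lists for Schwann, fat and blood cells were smaller, and in those for fat and blood cells genes passed in both directions. Of 4 Schwann cell markers 1 fell, with sums of 1504 to 1845 in knockout, against 1951 to 2458 in wild type. Of 3 fat cell markers 1 rose and 1 fell, with sums of 1309 to 2656 in knockout, against 1908 to 3400 in wild type. Of 5 blood markers 1 rose, Ptprc at 1.72 (SE 0.16), and 1 fell, Alas2 at -0.70 (SE 0.19). Their sums were 506 to 647 in knockout, against 419 to 484 in wild type. The lowest deposited intensity of any probe set was 11.34, so a value above 0 does not show that a marker was expressed. Hba-a1 (4.93 log2 units in knockout, 4.91 in wild type) and S100b (5.40 in knockout, 5.74 in wild type) were dim. The part of these cells in the mitoribosome result was not tested.

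The share of members that fell was similar with and without the short YY1 motif. Of 20 members with it 12 fell, with a median log2 fold change of -0.31, and of 45 without it 25 fell, with a median of -0.22. Of the 4 with the long form, Mrpl35 changed by -0.31 (SE 0.06) and Mrpl37 by -0.56 (SE 0.08), while Mrps11 and Mrps18a, at -0.19 and -0.11, did not pass. By the same search the ETS core CCGGAAG, bound by GABP among others, was found in 24 of 65 members (36.9%), against 16.4% of genes of the array, and the NRF1 sequence in 12 (18.5%), against 9.36%. Both factors are known regulators of nuclear genes for mitochondria. Members with the NRF1 sequence had a median of -0.14 and 4 of 12 fell, and those without had a median of -0.26 and 33 of 53 fell. Members with the ETS core had a median of -0.20 and 13 of 24 fell, and those without had a median of -0.28 and 24 of 41 fell. None of these splits was tested. The ERR sequence TNAAGGTCA was in none of the members and in 1.05% of the genes of the array. Of the 20 members with a short YY1 match, 7 also had the ETS core, and 21 of the 65 had none of the motifs.

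Of the 65 members in the promoter table, 24 had a gene on the other strand whose annotated start lay head to head within 1000 bases, and 16 distinct pairs had both genes on the array. In 1 of them, Mrpl46 and Mrps11, whose starts lie 42 bases apart, both genes are members and neither passed. Of the partners 6 fell, 2 rose and 8 did not pass, with a median of -0.06. Of all genes, 16% fell and 17.0% rose, and among genes above the median level 25.9% fell and 26.2% rose. Partners lie on both sides of that level, with Sars2, Eme1 and Helq among those below it, so neither set of shares is a matched background. Whether partners follow their mitoribosome gene was not tested. Some partners that did not pass were dim, such as Eme1 (5.77 log2 units in knockout, 5.63 in wild type) and Helq (4.95 and 4.97). Others were bright, such as Fau (13.48 and 13.41). A missed threshold does not show that a partner was unchanged. Of the 10 pairs whose mitoribosome gene fell, the partner fell in 3, rose in 2 and did not pass in 5.

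In 2 pairs the genes moved in opposite directions. Mrpl18 fell by 1.15, while Tcp1, of a subunit of the cytosolic chaperonin, whose start is 238 bases away, rose by 0.48 (SE 0.06, adjusted p = 0.000616). Mrpl32 fell by 0.51, while Psma2, of a proteasome subunit 205 bases away, rose by 0.24 (SE 0.06, adjusted p = 0.0109). In the 3 pairs that fell together, Mrpl14 stood with Tmem63b (-0.52, SE 0.06), Mrpl40 with Hira (-0.37, SE 0.08) and Mrpl51 with Ncapd2 (-0.33, SE 0.07).

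The reverse was seen in 3 pairs, where the partner fell and the mitoribosome gene did not pass. Ndufb5, of a complex I subunit, changed by -0.66 (SE 0.07), against -0.09 for Mrpl47. Sars2, of the mitochondrial seryl-tRNA synthetase, changed by -0.27 (SE 0.07), against 0.11 for Mrps12. Pnpla7, of a lysophospholipase, changed by -0.39 (SE 0.08), against 0.15 for Mrpl41. The differences within pairs were not tested, beyond the test of each gene.

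**Figure D5:**
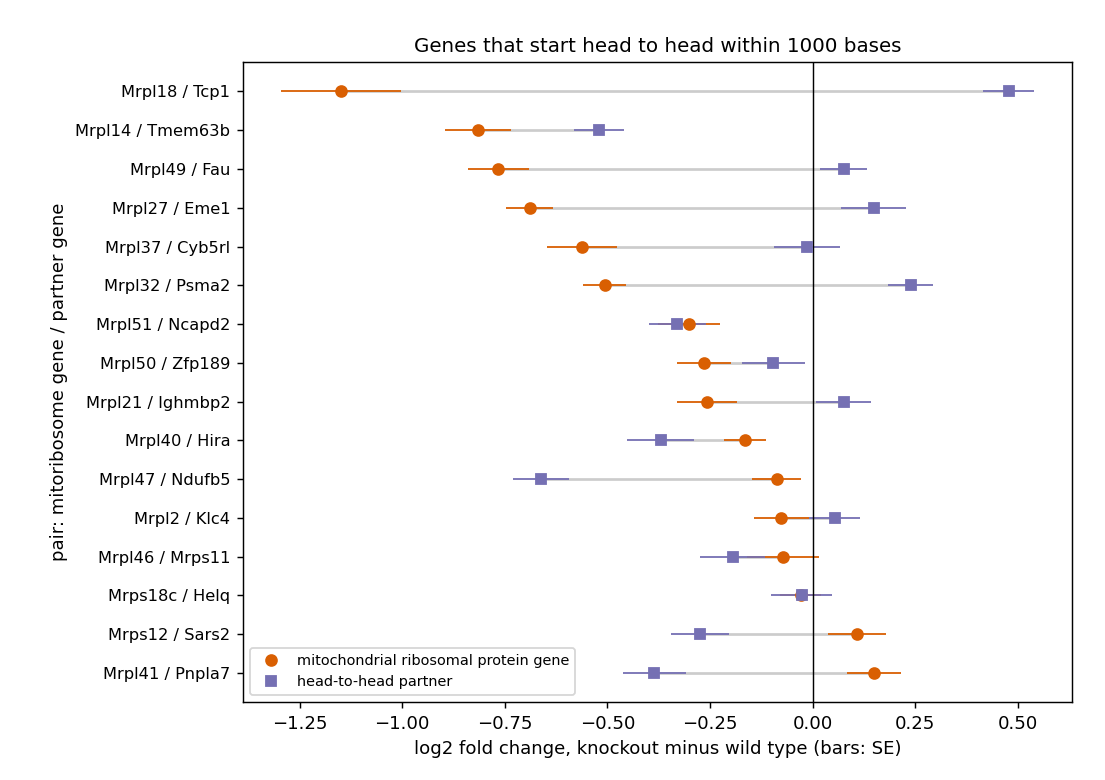
Each line is a pair of genes that start head to head within 1000 bases; circles are the mitoribosome gene and squares its partner, as log2 fold change with SE bars. Mrpl18 (-1.15) and Tcp1 (0.48) lie farthest apart, and Mrpl51 (-0.30) and Ncapd2 (-0.33) lie together.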

How the data were processed

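The authors deposited 1 linear intensity per probe set and array, processed with RMA (version not given) per the submitters' processing notes; the sources used here name no software or probe annotation. Of 22690 probe sets, 64 controls were left out. Array medians lay between 139.1 and 143.2, and the table held 0 columns of other samples. Of the others, 20380 had 1 platform symbol, and the brightest stood for each of 12393 genes, with symbols updated through RefSeq (12369 matched). Values were taken to log2(value + 1) and fitted with limma 3.58.1 in R 4.3.3 (two-sided, Benjamini-Hochberg). No filter on dim genes or detection call was used, and precision is limited by there being 7 arrays. Fits were tested on simulated data. The members, lists and rules for named genes were chosen with earlier results of these data known. Genes named were those with the largest falls and every rise, those nearest 0, those with the highest wild type mean, the Mrps18 genes, those whose probe sets disagree and the smallest p of each list; others, named for their role or as pair partners, were picked with their values known. The deviations of same-numbered arrays from their group means were hardly correlated (r = 0.029, -0.126 and 0.017). They were not set against those of differently numbered arrays, so this cannot exclude that the numbers mark pairs. Arrays were fitted as unpaired. Scan dates were not used here.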

Additional observations from a re-analysis of the deposited data

Results flagged for a closer look

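In 4 of the 75 genes examined (the 74 members and Yy1) 1 knockout array lay far from the other 3, where chance flags about 1 gene in 20. Mrpl39 measured 12 log2 units in knockout array 4, against 12.16 to 12.17 in the others, and Mrpl58 measured 10.59 in the same array, against 10.73 to 10.76. Mrpl40 measured 10.13 in knockout array 1, against 10.03 to 10.04, and Mrps25 measured 9.12 in that array, against 8.82 to 8.87.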

How the results depend on the processing

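The direction of both subunits' medians and of Yy1 (-1.12 to -0.89) held under every alternative run, among them other added constants, median centring, quantile normalization, brighter genes only and each array left out. The count of members that fell lay between 30 and 45 with an array left out (without wild type array 2 and without knockout array 1). The share of all genes that fell was 12.7% and 15.5% in these 2 runs, in both smaller than with every array. The count of 30 thus came with a loss of calls among all genes. Members that rose numbered 1 or 2 with an array left out, all in the large subunit: 1 without knockout array 2, 3 or 4 or wild type array 2 or 3. Without probe sets marked as shared, an alternative chosen after seeing the data, 41 of 71 members fell and 1 rose, in the large subunit. Mrpl37, Mrps24 and Mrps12 had only such probe sets and were not tested there. Mrpl19 and Mrpl28, whose brightest probe sets are also so marked, still fell. The replicate number was also used as a block, though it is not known whether the numbers mark pairs. With it 32 members fell, 10 of them in the small subunit, and 1 rose, in the large subunit. Knockout array 4 has no wild type array of its number, so it does not bear on the fold changes of that fit. The medians of -0.30 and -0.23 were those found without knockout array 4. With that block 12.9% of all genes fell. Of the 43 that fell, 28 kept their call throughout and 15 lost it at least once; of the 29 that did not pass, 5 passed at least once. The difference between the subunits' medians, small minus large, was 0.09 and lay between 0.05 and 0.10 with an array left out. No member reversed with a call.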
